A study of Homo sapiens with 4 samples.

Results

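Of the 5326 regions tested for HNF4A occupancy in HCCLM3 cells, 52 lay nearest to a gene of a chromatin modifier or remodeller family. They belonged to 48 of the 4324 genes named in the deposited tables. The members were taken by symbol, through the prefixes KDM, KMT, SETD, EHMT, HDAC, SIRT, KAT, CHD, SMARC, ARID, BRD, ING, DNMT, TET, PHF, ASXL and CBX, a rule that uses no measured value. All 17 prefixes had at least 1 region, 44 genes had 1 region, and ARID5A, CHD9, KDM6B and SIRT5 had 2 each. A pair of members are noncoding transcripts named after a chromatin gene, EHMT1-IT1 and KMT2E-AS1. Each gene is the one listed as closest by the authors, and closeness does not show regulation.

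HCCLM3 is an established human hepatocellular carcinoma line. HNF4A chromatin immunoprecipitation with sequencing (ChIP-seq) was set beside a nonspecific IgG antibody under high and under low glucose, with 1 library in each of the 4 groups. All 4 groups share this line, and the glucose level stands in their titles. The labels describe lentiviral lines with stable overexpression, but not of which gene, and give no glucose concentration. They name the same high glucose medium as growth medium for all 4 libraries. No difference below has a replicate check.

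HNF4A is a nuclear receptor of hepatocytes that binds DNA as a homodimer and works through coregulators that modify chromatin. Histone methyltransferases, demethylases, acetyltransferases and deacetylases write and erase marks on histone tails, and reader domains such as bromodomains, chromodomains and PHD fingers bind those marks. Remodellers of the CHD and SWI/SNF families move or evict nucleosomes with the energy of ATP, and DNMT and TET enzymes add and oxidise methyl groups on cytosine. Several of these genes are recurrently altered in liver cancer, among them ARID2, KMT2D, KMT2B and CHD1L.

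Promoters of 4 members are shown. KDM6B, SETD5 and BRD9 had the highest HNF4A over IgG ratios with a deposited p under 0.05. KDM6A, whose own ratios were not at an end of the results, is the close relative of KDM6B. The sequences are RefSeq's, on build GRCh38.p14, and are windows of 300 bases around a gene start. The deposited regions are on hg19, so whether a region covers the promoter printed was not determined. Where a gene had several promoters, the one with a motif match is given. Capitals mark the letters CAAAG, the core of the HNF4 half-site, or CTTTG where it lies on the opposite strand. For KDM6A they mark CAAAGNNCA alone, so a CTTTG elsewhere in it is left in lower case.
KDM6B promoter (GRCh38.p14, chr17:7839667-7839966, plus strand): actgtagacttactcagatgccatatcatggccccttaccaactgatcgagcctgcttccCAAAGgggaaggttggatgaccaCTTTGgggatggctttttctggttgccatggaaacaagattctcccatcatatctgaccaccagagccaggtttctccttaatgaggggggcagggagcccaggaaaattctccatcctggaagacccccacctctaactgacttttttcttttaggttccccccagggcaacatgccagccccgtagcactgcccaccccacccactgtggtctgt
SETD5 promoter (GRCh38.p14, chr3:9397365-9397664, plus strand): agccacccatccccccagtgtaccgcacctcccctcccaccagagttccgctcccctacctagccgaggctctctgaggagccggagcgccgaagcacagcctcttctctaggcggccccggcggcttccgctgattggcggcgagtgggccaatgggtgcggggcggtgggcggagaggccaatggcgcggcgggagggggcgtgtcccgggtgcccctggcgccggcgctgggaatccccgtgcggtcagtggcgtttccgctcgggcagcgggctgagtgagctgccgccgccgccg
BRD9 promoter (GRCh38.p14, chr5:892501-892800, minus strand): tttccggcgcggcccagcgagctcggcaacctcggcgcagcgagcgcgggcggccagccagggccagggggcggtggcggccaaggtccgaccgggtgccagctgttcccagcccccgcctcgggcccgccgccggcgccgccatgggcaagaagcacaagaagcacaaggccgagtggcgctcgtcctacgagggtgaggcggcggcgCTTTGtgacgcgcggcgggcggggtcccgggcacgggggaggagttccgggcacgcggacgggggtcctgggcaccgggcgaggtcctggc
KDM6A promoter (GRCh38.p14, chrX:44872938-44873237, plus strand): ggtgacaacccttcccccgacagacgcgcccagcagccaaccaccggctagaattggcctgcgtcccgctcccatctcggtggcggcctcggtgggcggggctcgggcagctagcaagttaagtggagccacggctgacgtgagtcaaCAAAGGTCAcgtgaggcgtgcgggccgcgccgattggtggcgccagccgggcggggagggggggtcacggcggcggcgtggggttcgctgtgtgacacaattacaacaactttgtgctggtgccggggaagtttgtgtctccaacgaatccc

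The KDM6B promoter printed held 2 matches to CAAAG, 1 on each strand, that of BRD9 held 1, and that of SETD5 held 0. KDM6B and BRD9 each had 2 promoters listed, from which one with a match was taken, and SETD5 had 1. These counts are therefore not a like comparison of the genes. Over both strands, the consensus CAAAGTCCA was found in 0 of 56 promoters of 35 member genes, against 0.384% of all 35116 promoters of the same length. The looser CAAAGNNCA, which contains the consensus, was found in 1 of 56, that of KDM6A, against 5.28% of all promoters. CAAAG, which is part of both, was found in 18 of 56 promoters, 32.1%, against 47.5% of all. Member promoters had a median G and C content of 69.3% and a median of 31 CpG, against 58.7% and 14 over all promoters. A match describes these letters in these windows, and no match says nothing of binding by the factor.

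The 52 member regions held 3749 HNF4A and 2194 IgG reads at high glucose, and 2689 HNF4A and 1485 IgG reads at low glucose. The median member region held 68 HNF4A and 37 IgG reads at high glucose, and 49 and 24 at low glucose. Over all 5326 regions those medians were 50 and 26, and 35 and 18. Members were wider, with a median of 1275 bp against 1030 bp, so reads per kilobase were closer: medians of 47.0 HNF4A and 30.1 IgG reads per kilobase at high glucose in members, against 45.8 and 24.9 over all regions. At low glucose they were 36.2 and 19.2 in members, against 33.1 and 16.7. Ratios below are log2 ratios of reads divided by each library's relative size, and each is followed by an exact 95% interval, which covers counting error only.

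At high glucose, HNF4A was at least 2-fold above IgG in 14 of the 52 member regions, or 26.9%, where 41.6% of all regions reached that fold. It was above IgG by any amount in 45, or 86.5%, where 84.2% of all regions were, and at least 2-fold below it in 0, where 1.05% were. At low glucose it was at least 2-fold above IgG in 24, or 46.2%, where 46.8% of all regions were. It was above IgG by any amount in 48, or 92.3%, where 91.5% were, and at least 2-fold below it in 1, CHD5, where 0.488% were. The median member ratio was 0.60 at high glucose, against 0.79 over all regions, and 0.95 at low glucose, against 0.94. Of the members, 17 lay above the median of all regions at high glucose and 26 did so at low glucose. The 95% interval lay above 0 for 25 members at high glucose, 48.1% against 55.2% of all regions, and for 33 at low glucose, 63.5% against 56.2%. It lay below 0 for CHD5 and ING5 at high glucose, 3.85% against 2.07%, and for 0 members at low glucose, against 0.713%. Of the 52, in the authors' deposited tables, 0 passed an FDR of 0.05, as 0 of all regions did. With a p under 0.05 before adjustment, as the authors' deposited tables give it, 3 members stood above IgG at high glucose, 5.77% where 4.96% of all regions did, and 2 at low glucose, 3.85% where 3.04% did. Below IgG at that p there were 0 members at high glucose, where 0.0188% of all regions were, and 0 at low glucose, where 0% were.

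**Figure D1:**
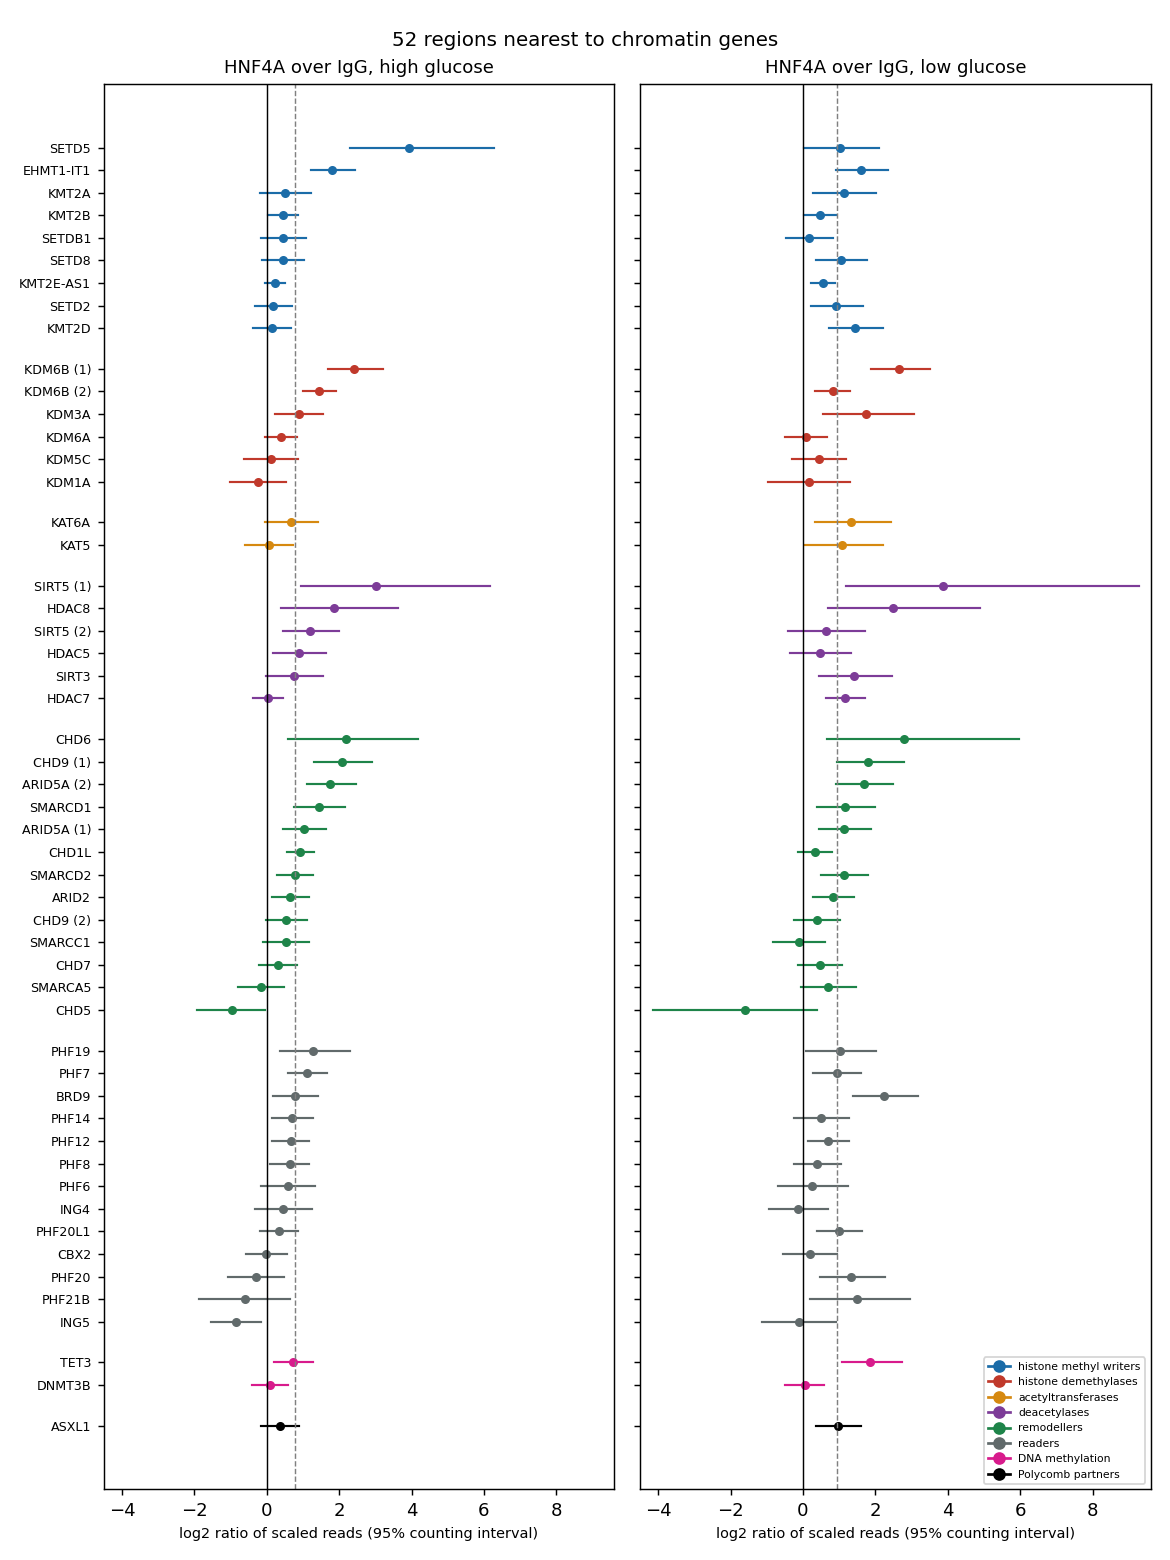
Log2 HNF4A over IgG ratio of scaled reads for the 52 member regions at high glucose (left) and low glucose (right), grouped by role, with points for the ratio and lines for the exact 95% counting interval; the dashed line is the median of all 5326 regions. KDM6B's first region stands at 2.41 and 2.66 with intervals clear of 0, while CHD5 lies below 0 in both panels.

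Roles below were given by prefix alone, not by the activity of each protein. PHF8, for example, counts among the readers by its PHF prefix. The KDM prefix stands for histone demethylases. Of its 6 regions, 2 were at least 2-fold above IgG at each glucose level, or 33.3%. Of all regions 41.6% were at high and 46.8% at low glucose. KDM6B, also called JMJD3, removes the repressive Polycomb methyl mark from histone H3 and is induced in inflammatory and stress responses. Its first region, chromosome 17 from 7739663 to 7740763 (hg19), held 112 HNF4A and 19 IgG reads at high glucose, and 103 HNF4A and 16 IgG reads at low glucose. The ratios were 2.41 (1.70 to 3.20) and 2.66 (1.89 to 3.52), and in the authors' deposited tables the p-values were 0.0142 and 0.00404. This region had the most HNF4A reads per kilobase of all members at high glucose, 102, beside 17.3 for IgG. Both ratios were the highest among the 6 demethylase regions, and the HNF4A reads themselves differed little between glucose levels, at -0.01 (-0.41 to 0.39).

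The second KDM6B region lay 4106 bp beyond the end of the first, from 7744870 to 7747679, and was wider, at 2810 bp. It held 160 HNF4A and 53 IgG reads at high glucose, and 104 HNF4A and 58 IgG reads at low glucose. Its ratios of 1.45 (0.99 to 1.92) and 0.82 (0.34 to 1.31) were lower than those of the first region, and at low glucose the intervals of the pair did not overlap. KDM6A, the X-linked relative of KDM6B that also removes the Polycomb mark, held 108 HNF4A and 74 IgG reads at high glucose, and 55 HNF4A and 51 IgG reads at low glucose. Its ratios were 0.40 (-0.04 to 0.85) and 0.08 (-0.49 to 0.66), so neither interval lay clear of 0. KDM3A, which removes methyl groups from lysine 9 of histone H3, stood at 0.88 (0.23 to 1.55) and 1.73 (0.55 to 3.08). KDM5C and KDM1A, histone H3 demethylases, ranged from -0.24 to 0.44 over both glucose levels, and each of their intervals included 0.

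The 9 regions of histone methyl writers were above IgG at both glucose levels, where 84.2% of all regions were at high and 91.5% at low glucose. At least 2-fold above it were 2 at high glucose, 22.2% where 41.6% of all regions were, and 5 at low glucose, 55.6% where 46.8% were. SETD5, a SET domain protein of corepressor complexes, had the highest ratio of all members at high glucose. Its region on chromosome 3 from 9464310 to 9465081 held 51 HNF4A and 3 IgG reads at high glucose, and 27 HNF4A and 13 IgG reads at low glucose. The ratios were 3.94 (2.31 to 6.27) and 1.03 (0.02 to 2.11), with p-values of 0.0151 and 0.449 in the authors' deposited tables. Between the glucose levels both antibodies gave unlike reads at SETD5, with a log2 ratio of 0.78 (0.08 to 1.51) for HNF4A, high over low, and for IgG of -2.13 (-4.58 to -0.27).

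EHMT1-IT1 is a transcript from an intron of EHMT1, the gene of a histone H3 lysine 9 methyltransferase. Its region, chromosome 9 from 140682883 to 140684503, held 120 HNF4A and 31 IgG reads at high glucose, and 71 HNF4A and 23 IgG reads at low glucose. The ratios of 1.81 (1.23 to 2.43) and 1.60 (0.90 to 2.35) were close to each other, and the p-value at high glucose in the authors' deposited table was 0.0458. The COMPASS methyltransferase genes KMT2A, KMT2B and KMT2D, whose products methylate histone H3 at active promoters and enhancers, stood at 0.50 (-0.19 to 1.21), 0.46 (0.04 to 0.87) and 0.15 (-0.38 to 0.68) at high glucose. At low glucose they stood at 1.13 (0.29 to 2.02), 0.48 (0.04 to 0.92) and 1.45 (0.72 to 2.22). KMT2D held 70 HNF4A and 57 IgG reads at high glucose, and 61 HNF4A and 22 IgG reads at low glucose, so its HNF4A reads were similar and its IgG reads were not.

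KMT2E-AS1, the antisense neighbour of KMT2E, had the widest member region, 4169 bp, and the most HNF4A reads, 260 at high and 193 at low glucose, beside 201 and 129 IgG reads. Its ratios were low, at 0.23 (-0.05 to 0.50) and 0.55 (0.23 to 0.89). SETD2, the methyltransferase of transcribed gene bodies, stood at 0.18 (-0.33 to 0.70) and 0.92 (0.22 to 1.65). SETDB1, which silences repeats through lysine 9 of histone H3, stood at 0.46 (-0.15 to 1.09) and 0.18 (-0.47 to 0.82). SETD8, now named KMT5A and a methyltransferase of histone H4, stood at 0.44 (-0.13 to 1.02) and 1.05 (0.37 to 1.77).

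**Figure D2:**
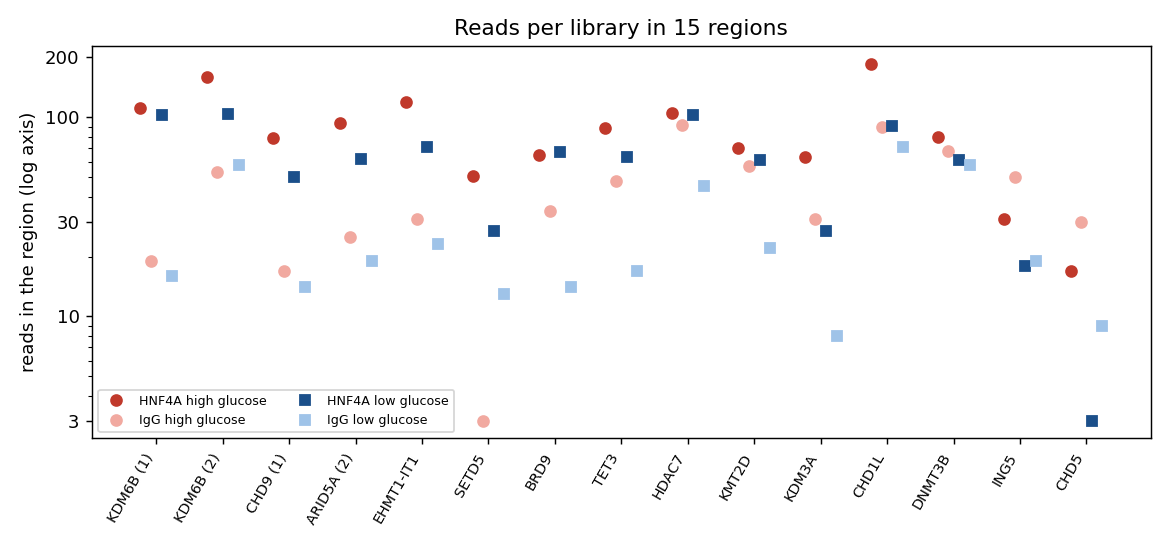
Reads in 15 member regions (log axis) for the 4 libraries, HNF4A dark and IgG pale, circles for high glucose and squares for low glucose; (1) and (2) are the first and second region of a gene by position. At KDM6B (1) both HNF4A points lie above 100 and both IgG points below 20. At HDAC7, TET3, BRD9 and KMT2D, and also at KDM3A, CHD5 and ING5, the pale square lies well under the pale circle. At SETD5 the pale square lies well above it.

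The acetyltransferase genes KAT5 (Tip60) and KAT6A (MOZ) were less than 2-fold above IgG at high glucose and more at low glucose. KAT5 stood at 0.07 (-0.59 to 0.73) and 1.09 (0.05 to 2.21), and KAT6A at 0.68 (-0.05 to 1.43) and 1.34 (0.34 to 2.44). At both, the log2 ratio of high over low glucose was larger for IgG than for HNF4A, with overlapping intervals. For IgG and then HNF4A it was 1.65 (0.68 to 2.72) and 0.62 (-0.11 to 1.38) at KAT5. At KAT6A it was 1.10 (0.06 to 2.22) and 0.43 (-0.25 to 1.14). KAT5 held 44 HNF4A and 38 IgG reads at high glucose, and 26 and 12 at low glucose. KAT6A held 46 HNF4A and 26 IgG reads at high glucose, and 31 and 12 at low glucose.

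HNF4A exceeded IgG at both glucose levels in all 6 regions of deacetylase genes, beside 84.2% of all regions at high and 91.5% at low glucose. It did so at least 2-fold in 3 at high glucose, 50% where 41.6% of all regions did, and in 4 at low glucose, 66.7% where 46.8% did. SIRT5 encodes a mitochondrial enzyme that removes succinyl groups. Its first region, chromosome 6 from 13548816 to 13549409, held 18 HNF4A and 2 IgG reads at high glucose, and 15 HNF4A reads at low glucose, where IgG is listed with 1 read, a value that 0 reads could also give. Its ratios of 3.02 (0.96 to 6.18) and 3.88 (1.18 to 9.28) rest on these few IgG reads. The second SIRT5 region, 25083 bp away, held 53 HNF4A and 21 IgG reads at high glucose, and 22 and 14 at low glucose. Its ratios were 1.19 (0.44 to 1.99) and 0.63 (-0.41 to 1.71).

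HDAC8, an X-linked class I deacetylase, also had few reads, 20 HNF4A and 5 IgG at high glucose, and 17 and 3 at low glucose. Its ratios were 1.85 (0.40 to 3.62) and 2.48 (0.69 to 4.89). HDAC5 and HDAC7 are class IIa deacetylases, which AMPK phosphorylates in liver of mice. HDAC5 stood at 0.88 (0.17 to 1.63) and 0.47 (-0.37 to 1.33). HDAC7 held 105 HNF4A and 92 IgG reads at high glucose, and 103 HNF4A and 45 IgG reads at low glucose. HNF4A reads at HDAC7 were nearly equal, and the ratio of 0.04 (-0.37 to 0.46) at high glucose stood beside 1.17 (0.65 to 1.71) at low glucose. SIRT3, the main mitochondrial deacetylase, stood at 0.76 (-0.01 to 1.55) and 1.40 (0.45 to 2.45).

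The 13 remodeller regions are those of the CHD, SMARC and ARID prefixes. At high glucose 5 were at least 2-fold above IgG, 38.5% where 41.6% of all regions were. At low glucose 6 were, 46.2% where 46.8% were. Both shares were close to those of all regions, and both counts hold the 2 ARID5A regions, which are here by prefix. CHD9, a CHD remodeller first known as a coactivator of the nuclear receptor PPAR-alpha, had 2 regions 76228 bp apart. The first, chromosome 16 from 53086228 to 53087582, held 79 HNF4A and 17 IgG reads at high glucose, and 50 and 14 at low glucose. Its ratios were 2.07 (1.30 to 2.92) and 1.81 (0.93 to 2.78), while the second region stood at 0.54 (-0.01 to 1.10) and 0.39 (-0.24 to 1.03).

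ARID5A, an ARID family protein that also stabilises inflammatory mRNAs, had 2 regions on chromosome 2 that were 5135 bp apart. The region from 97222163 to 97223248 held 94 HNF4A and 25 IgG reads at high glucose, and 62 and 19 at low glucose. Its ratios were 1.76 (1.12 to 2.46) and 1.68 (0.92 to 2.50). The other, from 97215519 to 97217027, stood at 1.02 (0.44 to 1.63) and 1.14 (0.43 to 1.88). CHD6 stood at 2.18 (0.60 to 4.18) and 2.78 (0.66 to 5.96), on 4 and 2 IgG reads.

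Of the SWI/SNF subunits among the remodellers, SMARCD1 had the highest ratio at both glucose levels, and SMARCC1 was below IgG at low glucose. BRD9, a SWI/SNF subunit counted among the readers by its prefix, stood above SMARCD1 at low glucose, at 2.23 (1.39 to 3.18). SMARCD1 and SMARCD2, alternative subunits of the complex, stood at 1.44 (0.75 to 2.17) and 0.77 (0.28 to 1.28) at high glucose. At low glucose they stood at 1.17 (0.40 to 1.98) and 1.13 (0.50 to 1.79). ARID2, a PBAF subunit, stood at 0.65 (0.15 to 1.17) and 0.84 (0.29 to 1.40). SMARCC1, a core subunit, stood at 0.52 (-0.11 to 1.16) and -0.11 (-0.83 to 0.61).

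SMARCA5, the ISWI ATPase, stood at -0.15 (-0.78 to 0.48) and 0.69 (-0.06 to 1.47), and CHD7, the gene of CHARGE syndrome, at 0.31 (-0.20 to 0.83) and 0.46 (-0.15 to 1.08). CHD5, a tumour suppressor gene expressed mainly in neurons and testis, was the remodeller farthest below IgG. It held 17 HNF4A and 30 IgG reads at high glucose, and 3 HNF4A and 9 IgG reads at low glucose. Its ratios were -0.97 (-1.92 to -0.06) and -1.61 (-4.13 to 0.39).

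Of the 13 reader regions, at high glucose 2 were at least 2-fold above IgG, 15.4% where 41.6% of all regions were, and at low glucose 4 were, 30.8% where 46.8% were. BRD9, the bromodomain subunit of the noncanonical BAF complex, held 65 HNF4A and 34 IgG reads at high glucose, and 67 HNF4A and 14 IgG reads at low glucose, on chromosome 5 from 892374 to 893454. Its ratios were 0.79 (0.17 to 1.43) and 2.23 (1.39 to 3.18), and its p-value at low glucose in the authors' deposited table was 0.0317. HNF4A reads at BRD9 were nearly equal between the glucose levels, and the IgG reads were not. PHF19, a Polycomb-like subunit of the PRC2 methyltransferase, stood at 1.29 (0.38 to 2.29) and 1.02 (0.09 to 2.02), and PHF7 at 1.11 (0.59 to 1.66) and 0.93 (0.29 to 1.59).

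PHF20, a subunit of an acetyltransferase complex, and PHF21B lay below IgG at high glucose, at -0.29 (-1.07 to 0.48) and -0.59 (-1.86 to 0.63). At low glucose they lay above it, at 1.33 (0.47 to 2.26) and 1.49 (0.19 to 2.97). ING5, a PHD finger protein of the KAT6A complex, was below IgG at high glucose, with 31 HNF4A and 50 IgG reads and a ratio of -0.84 (-1.53 to -0.16). At low glucose it held 18 HNF4A and 19 IgG reads, a ratio of -0.10 (-1.12 to 0.91). Its relative ING4 stood at 0.46 (-0.31 to 1.25) and -0.13 (-0.94 to 0.68). CBX2, the chromodomain subunit of Polycomb complex PRC1, stood at -0.01 (-0.58 to 0.56) and 0.19 (-0.54 to 0.93). PHF6, PHF8, PHF12, PHF14 and PHF20L1 ranged from 0.34 to 0.71 at high glucose and from 0.26 to 0.99 at low glucose.

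The cytosine methylation genes differed from each other at low glucose. TET3, which oxidises methylcytosine, held 88 HNF4A and 48 IgG reads at high glucose, and 63 HNF4A and 17 IgG reads at low glucose, with ratios of 0.73 (0.20 to 1.27) and 1.86 (1.07 to 2.73). DNMT3B, a de novo methyltransferase, held 80 HNF4A and 68 IgG reads at high glucose, and 61 and 58 at low glucose. Its ratios were 0.09 (-0.40 to 0.58) and 0.05 (-0.50 to 0.59). The low glucose intervals of TET3 and DNMT3B did not overlap. ASXL1, a partner of the deubiquitinase BAP1 that acts on Polycomb-marked histones, stood at 0.36 (-0.16 to 0.88) and 0.97 (0.37 to 1.60).

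Across the glucose levels, 11 members were at least 2-fold above IgG at both, 21.2% of members against 31.4% of all regions. These were ARID5A (both regions), CHD6, the first CHD9 region, EHMT1-IT1, HDAC8, the first KDM6B region, PHF19, SETD5, the first SIRT5 region and SMARCD1. At high glucose alone there were 3, or 5.77% against 10.3% of all regions, and they were the second KDM6B region, PHF7 and the second SIRT5 region. At low glucose alone there were 13, or 25% against 15.5%, and at neither there were 25, or 48.1% against 42.9%. The ratios at the 2 glucose levels, which come from separate libraries, correlated over the 52 regions with a Pearson r of 0.625 and a Spearman rho of 0.513, beside 0.561 and 0.606 over all regions. Points share the region's width and sequence, and regions are not replicates.

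**Figure D3:**
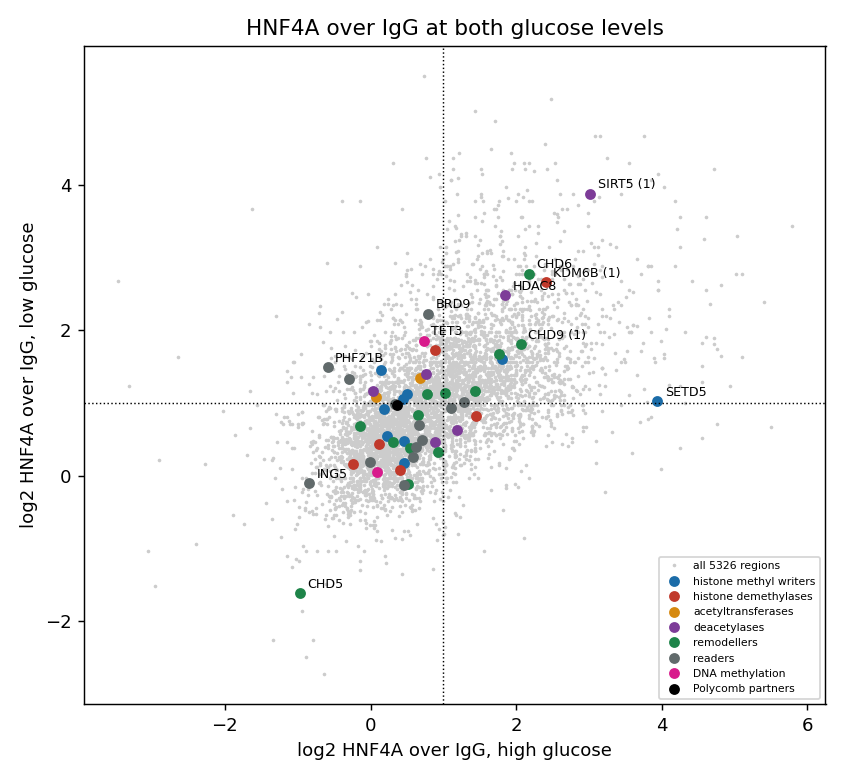
Log2 HNF4A over IgG at high glucose (x) and low glucose (y), with the 52 member regions coloured by role over all 5326 regions in grey; dotted lines mark 2-fold. SETD5 lies far right at 3.94 and 1.03, BRD9 and TET3 lie above the horizontal line but left of the vertical one, and CHD5 lies lowest.

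**Figure D4:**
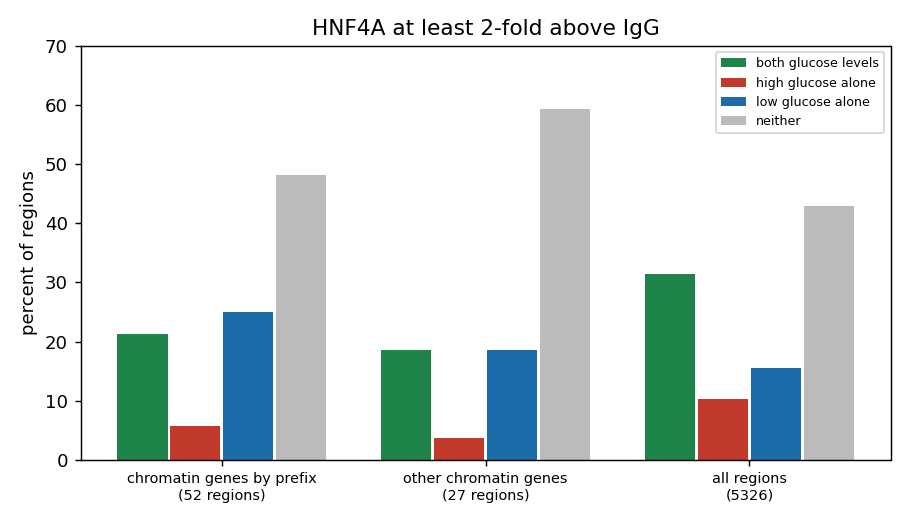
Percent of regions with HNF4A at least 2-fold above IgG at both glucose levels, at high glucose alone, at low glucose alone and at neither, for the 52 member regions, the 27 regions of other chromatin genes and all 5326 regions. The member bars are 21.2%, 5.77%, 25% and 48.1%.

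In 45 of the 52 regions, or 86.5%, the HNF4A library of high glucose held more scaled reads than that of low glucose, where 81.8% of all regions did. The median was 0.37 in members and 0.36 over all regions, and 28 members lay above the median of all regions. At least 2-fold more HNF4A at high glucose was seen in 3 members, 5.77% where 6.78% of all regions reached it: CHD5, the second SIRT5 region and KDM3A. At least 2-fold less was seen in 0, where 0.713% of all regions had it, and 2 members, CHD5 and the second SIRT5 region, or 3.85%, had a p under 0.05 in the authors' deposited table, where 4.39% did. The second SIRT5 region stood at 1.13 (0.39 to 1.92), with a p of 0.0494 in the authors' deposited table, and IgG there stood at 0.57 (-0.47 to 1.66). KDM3A held 63 HNF4A reads under high and 27 under low glucose, a ratio of 1.09 (0.42 to 1.79), and IgG there held 31 and 8, a ratio of 1.94 (0.79 to 3.27). CHD5 had the highest ratio, 2.37 (0.58 to 4.78), and a p of 0.0155 in the authors' deposited table. It rested on 17 and 3 reads, HNF4A lay below IgG at both glucose levels, and IgG there stood at 1.72 (0.61 to 2.98).

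CHD1L, a PARP-activated remodeller gene amplified in liver cancer, had the narrowest interval of the 7 members, 13.5% where 13% of all regions were, that an exact test of the HNF4A reads, Benjamini-Hochberg adjusted over all regions, called higher at high glucose. Its region, chromosome 1 from 146707689 to 146710498, held 186 HNF4A reads under high and 91 under low glucose, a ratio of 0.90 (0.53 to 1.27). IgG there held 89 and 71, a ratio of 0.31 (-0.16 to 0.78). The difference between these 2 ratios was 0.59 (-0.02 to 1.19), an interval that included 0. Over all regions the median HNF4A ratio, high over low, was 0.36. PHF14, KDM6A and PHF6 stood at 0.86 (0.29 to 1.46), 0.84 (0.36 to 1.33) and 0.83 (0.06 to 1.64), and of these PHF14 and KDM6A were among the 7 and PHF6 was not. In all, 13 members had an interval above 0 for HNF4A, 25% where 25.8% of all regions did, and 0 had one below 0, where 0.826% did. The first KDM6B region, ASXL1, PHF20L1 and SMARCA5 were nearest to equality, from -0.01 to 0.02.

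IgG itself was higher in the high glucose library in 46 of the 52 regions, 88.5% where 77.9% of all regions were, with a median of 0.60 against 0.51 over all regions. It was at least 2-fold higher in 12 members, 23.1% where 19.4% of all regions were, and at least 2-fold lower in 1, SETD5, where 3.38% were. SETD5 was also the 1 member whose IgG interval lay below 0, where 1.93% of all regions had such an interval. Over the members, the high over low ratio of HNF4A and that of IgG correlated with a Pearson r of 0.0596 and a Spearman rho of -0.0163. Over all regions these were 0.00953 and 0.02.

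In 7 members the HNF4A over IgG ratio of high glucose was at least 2-fold below that of low glucose, 13.5% where 11.9% of all regions were, and at least 2-fold higher in 1, SETD5, where 8.49% were. It was higher at high glucose by any amount in 21 members, 40.4% where 41.7% of all regions were. The 7 were BRD9, HDAC7, KAT5, KMT2D, PHF20, PHF21B and TET3. In these 7 the high over low ratio of HNF4A had a median of -0.11 and reached at most 0.62, while that of IgG ranged from 0.98 to 1.65. Because the 7 were picked by a value that holds the IgG reads, a high IgG ratio among them is partly built in. Differences were -1.44 (-2.58 to -0.35) for BRD9, -1.12 (-1.81 to -0.44) for HDAC7, -1.29 (-2.24 to -0.38) for KMT2D and -1.14 (-2.16 to -0.16) for TET3. They were -2.08 (-4.00 to -0.21) for PHF21B, -1.62 (-2.83 to -0.42) for PHF20 and -1.02 (-2.33 to 0.24) for KAT5, whose interval included 0. For SETD5 the difference was 2.91 (0.86 to 5.45). An exact conditional test of the reads, Benjamini-Hochberg adjusted over all regions, called 0 of the 52 in either direction, where 0.582% of all regions were called higher and 0.713% lower. Before adjustment, a p under 0.05 was found for 1 member in the higher direction, where 4.68% of all regions were, and for 6 in the lower one, where 8.32% were.

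**Figure D5:**
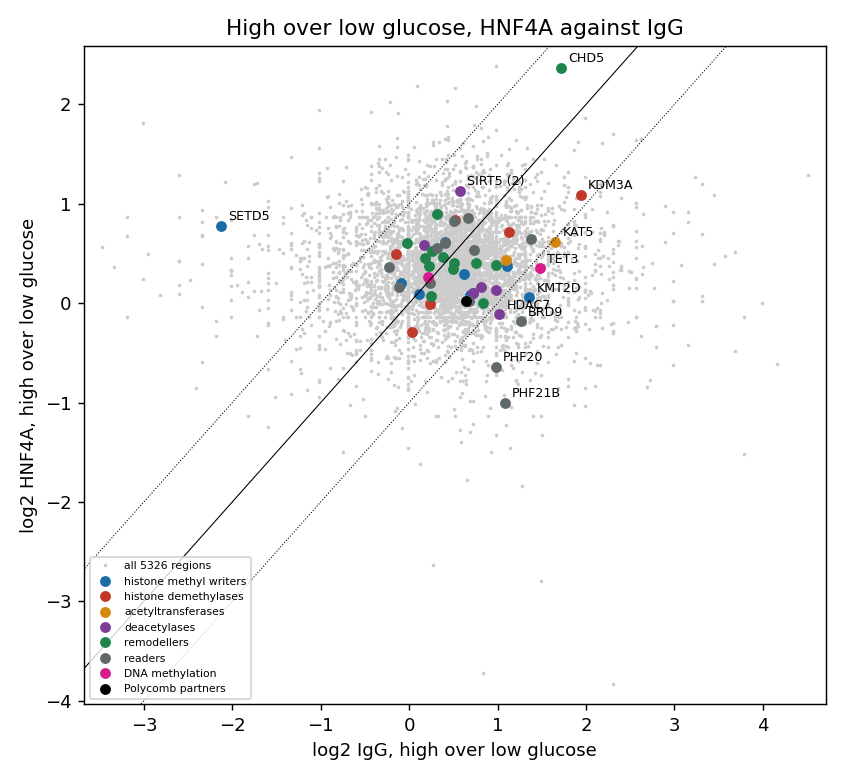
Log2 ratio of high over low glucose for IgG (x) and HNF4A (y) in the 52 member regions, coloured by role, over all 5326 regions in grey; the solid line marks equal ratios and the dotted lines a 2-fold difference between them. BRD9, HDAC7, KMT2D, TET3, KAT5, PHF20 and PHF21B lie on or beyond the lower dotted line, and SETD5 lies alone beyond the upper one among members.

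The members were also set beside all regions of like width. Among member regions under 1000 bp, 6 of 16 were at least 2-fold above IgG at high glucose, 37.5% where 53.4% of all regions of that width were. From 1000 to under 2000 bp there were 7 of 27, 25.9% where 34.9% were, and from 2000 bp there was 1 of 9, 11.1% where 15.4% were. At low glucose the counts were 11 of 16, 12 of 27 and 1 of 9, or 68.8%, 44.4% and 11.1%, where 59.0%, 40.2% and 18.1% of all regions were. The Spearman correlation of width and ratio was -0.0813 at high and -0.325 at low glucose in members, beside -0.157 and -0.243 over all regions. The part of width in the lower member share at high glucose was not tested. On chromosome X, where 5 members lay, 1 of 5 was at least 2-fold above IgG at each glucose level, against 13 and 23 of the 47 elsewhere. Of all 140 regions on X, 45% were at high and 46.4% at low glucose.

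A list of 95 further symbols of chromatin genes that the prefixes miss had regions for 23 genes, 27 regions in all. Some symbols of the list, the MLL and MYST names among them, are older names of KMT and KAT genes. The prefixes already cover those genes, so the list holds fewer than 95 further genes. Of the 27, 24 lay above IgG at high and 26 at low glucose, beside 84.2% and 91.5% of all regions. A ratio of 2-fold or more was reached by 6, or 22.2%, at high glucose and by 10, or 37%, at low glucose, beside 41.6% and 46.8% of all regions. The medians were 0.62 and 0.85, beside 0.79 and 0.94 over all regions. The highest at high glucose were SMYD5, at 1.82 (1.31 to 2.36) and 1.28 (0.79 to 1.80), the histone H4 methyltransferase gene SUV420H2, at 1.80 (0.90 to 2.80) and 1.56 (0.58 to 2.64), and DOT1L, a methyltransferase linked to elongation, at 1.70 (0.90 to 2.57) and 2.43 (1.16 to 3.98). EZH2, the methyltransferase whose mark KDM6B removes, had 2 regions, at 0.24 and 0.56 at high glucose and at 1.16 and 0.30 at low glucose.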

How the data were processed

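The submitters' processing notes name bcl2fastq, Bowtie 1.1.2, MACS, DiffBind, HOMER and build hg19, with no settings. The authors deposited 3 tables over the same 5326 regions, which compare HNF4A with IgG within each glucose level and the 2 HNF4A libraries with each other. Per the file headers they hold levels and folds, which from the values are log2, and p-values with an FDR. The choice of regions is not described; if reads in these libraries chose them, an excess over IgG is partly built in. With the log undone, 100% of levels came out as whole reads, to within 0.01 of a read, which gave the reads and the relative library sizes. These were 1.1 and 0.993 for HNF4A and IgG under high glucose, and 1 and 0.982 under low. Total depth is unknown. Starts were counted from 0 and are printed counted from 1.

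From the reads, log2 ratios with exact Clopper-Pearson 95% intervals were computed with Python 3.11.15, scipy 1.17.1 and pandas 2.3.3. PCR copies are not independent molecules, so intervals cover counting error only. A region was called by a 2-fold ratio, since 1 library per group allows no test of conditions. Exact tests of reads, adjusted over all regions, compare libraries, were chosen after seeing the data and were tested on simulated data. The simulated reads carried counting error only, so they could not show how the tests behave with PCR copies or differences between replicate libraries. The interval of a difference of ratios is the exact conditional one of the odds ratio. Motifs were searched in RefSeq promoters in place of the regions, for which no hg19 genome was used.

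The members, the list of other chromatin genes and the rule for named genes were chosen with earlier results of these data known. The rule takes, per table, the 10 highest and 6 lowest members at or above the median level, 1 per gene, the member of highest level of each prefix, and members with a deposited p under 0.05. Other members are named to account for all 52, and were added after their values were seen. RefSeq matched all 48 genes by symbol or synonym, EHMT1-IT1 through EHMT1, whose promoter was not used.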

Additional observations from a re-analysis of the deposited data

Results flagged for a closer look

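For 7 member regions HNF4A lay on opposite sides of IgG at the 2 glucose levels, 13.5% where 16.2% of all regions did, and the difference was not called for any of them by the exact test adjusted over all regions. The log2 ratios at high and then low glucose were -0.59 and 1.49 for PHF21B, -0.29 and 1.33 for PHF20, -0.15 and 0.69 for SMARCA5, -0.24 and 0.17 for KDM1A, and -0.01 and 0.19 for CBX2. In the other direction they were 0.46 and -0.13 for ING4, and 0.52 and -0.11 for SMARCC1. With 1 library per group a change of sign has no replicate check.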

How the results depend on the processing

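No paired analysis was possible because each group has 1 library and the labels give no replicate numbers. For the same reason no library could be left out. The alternatives moved counts of members as follows, each given in the order high glucose over IgG, low glucose over IgG, HNF4A high over low glucose, IgG high over low glucose, and ratio higher at high glucose, where the 2-fold counts are 14, 24, 3, 12 and 1. With a 4-fold threshold they were 5, 5, 1, 0 and 1, where 13.2%, 12.2%, 0.113%, 2.44% and 1.31% of all regions were called. Centred on the median of all regions they were 7, 5, 1, 3 and 1, beside 17.9%, 13.4%, 1.69%, 6.21% and 10.8%, since centring takes 0.79, 0.94, 0.36 and 0.51 off the first 4. With low regions left out, below the median mean level, they were 8 of 36, 14 of 37, and 1, 6 and 0 of 34 members, beside 28.4%, 33.1%, 5.78%, 13.3% and 5.36% of the regions left. By the deposited p under 0.05 the first 3 were 3, 2 and 2, beside 4.96%, 3.04% and 4.39% of all regions. By the exact test of the reads the 5 were 25, 29, 7, 10 and 0, beside 52.3%, 51%, 13%, 14.3% and 0.582%. Adding 1 read or taking 1 region per gene moved no count by more than 1.5 times. Of the medians, that of HNF4A at high over low glucose was 0.51 with unscaled reads, against 0.37, as that of all regions was 0.49, against 0.36. Of single members' ratios, none at 2-fold or more changed sign with unscaled reads, 1 read added or centring. These shifts were too small to reverse a 2-fold ratio, so that outcome was fixed in advance. Of 260 ratios, centring put 87 outside their counting interval. Depth limits regions with few reads in at least 1 library, be it IgG or HNF4A. The intervals of SIRT5 (first region), CHD6, HDAC8, SETD5, CHD5 and PHF21B span more than 3 on the log2 scale in at least 1 comparison.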

Other observations

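The nearest other listed region to CHD1L, 62193 bp away, lay nearest to PRKAB2, and that to KMT2D, 40486 bp away, lay nearest to PRKAG1; both encode AMPK subunits, and these pairs were picked out after the data were seen. Of the 52 member regions, 17 had another listed region within 50000 bp, and for 6 of these it belonged to the same gene. The share of all regions with such a neighbour was not computed, so whether 17 of 52 is usual is unknown.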
